A study of Rattus norvegicus with 9 samples.

Results

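The 7 Sprouty and SPRED genes (Spry1 to Spry4 and Spred1 to Spred3) were looked up by gene symbol in RNA-seq values of the rat mast cell (MC) model RBL-2H3, a line of basophilic leukemia cells, and each was found once among 18006 genes with a value. There were 9 samples, 3 in each of 3 groups named Ctrl, DNP (IgE/DNP in the labels) and PF. The DNP samples had been loaded with anti-DNP IgE at 50 ng/mL for 12 h and then given the antigen DNP-HSA at 100 ng/mL for 4 h. The PF samples had the same IgE and antigen with PF added for 1 h before the antigen, and the labels do not say what PF is. For PF replicates 1, 2 and 3, one label field gives 4, 5 and 6 h of antigen, whereas another gives 4 h for all. Ctrl samples are called untreated in one field, but a protocol shared by all samples names the IgE and the antigen, so it is not settled whether they had received IgE. All groups were made from 1 cell line, and nothing in the labels says whether replicates were separate cultures, so p-values measure only the spread between these samples.

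Sprouty and SPRED proteins are inhibitors of the Ras to ERK kinase pathway that share a cysteine-rich C-terminal domain, through which they attach to membranes. Receptors such as FcεRI and KIT switch on Ras, which activates Raf, MEK and ERK in turn. Sprouty genes are known as targets of ERK signalling that act back on it, and SPRED proteins bring the Ras GTPase-activating protein neurofibromin (NF1) to the membrane. In MCs the same pathway feeds cytokine transcription after FcεRI is cross-linked.

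Values were read as FPKM, a level per length of transcript and per depth of the library, so levels could be compared between genes. FPKM sums ranged from 573023 to 630069 per sample, and the number of reads behind them is unknown. Each of the 9 samples was most similar to another of its own group. Of 8 MC markers, 7 had a value, and their summed level was between 2429 and 2590 FPKM in every sample, including the IgE receptor chains Fcer1a and Ms4a2. Markers of other cell types were low. The 4 T cell markers summed to between 6.96 and 10.3 FPKM, almost all of it Cd3e, the 2 B cell markers with a value to at most 1.15 FPKM, the 3 macrophage markers to at most 2.07 FPKM, the 4 fibroblast and epithelial markers to at most 1.18 FPKM, and the 3 erythroid markers to at most 0.58 FPKM, with the globin gene Hbb at 0.35 FPKM or less. The labels call the material peripheral blood, while the erythroid and lymphoid markers other than Cd3e were near 0.

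Promoter sequences are shown for Spry4, the gene that changed most, and for Spred1 and Spred2, the most abundant of the 7. They are the 250 bases before the RefSeq start site on build GRCr8, read in the direction of transcription, at chr18:30702547-30702796 (minus strand) for Spry4, chr3:124436980-124437229 (plus strand) for Spred1 and chr14:98350327-98350576 (plus strand) for Spred2. The labels name build rn6 for the expression files, so these positions do not apply to that build. Capitals mark matches on either strand to the motifs TGANTCA (AP-1), TGACGT (CRE core), GCGTGGG (EGR core), CCGGAA (ETS) or GGAAAA (NFAT), and to the repeated word CCATTCAT.
Spry4: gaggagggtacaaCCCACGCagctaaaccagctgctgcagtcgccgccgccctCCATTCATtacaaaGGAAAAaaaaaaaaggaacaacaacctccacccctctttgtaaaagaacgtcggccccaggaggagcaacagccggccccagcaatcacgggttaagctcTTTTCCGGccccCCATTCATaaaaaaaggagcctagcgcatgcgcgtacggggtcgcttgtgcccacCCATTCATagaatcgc
Spred1: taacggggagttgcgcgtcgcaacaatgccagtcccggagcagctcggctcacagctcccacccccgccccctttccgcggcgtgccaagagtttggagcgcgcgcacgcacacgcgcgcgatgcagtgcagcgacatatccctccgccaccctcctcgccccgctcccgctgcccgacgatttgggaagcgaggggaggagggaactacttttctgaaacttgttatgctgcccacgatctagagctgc
Spred2: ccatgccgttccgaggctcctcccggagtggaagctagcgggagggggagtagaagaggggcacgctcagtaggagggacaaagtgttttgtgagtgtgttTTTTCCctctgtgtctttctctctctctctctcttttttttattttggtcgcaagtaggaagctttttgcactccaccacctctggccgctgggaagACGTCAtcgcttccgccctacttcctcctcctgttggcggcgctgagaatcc

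The window of Spry4 held 1 EGR core, 1 ETS match and 2 NFAT matches, of which the ETS match overlaps the second NFAT match. Spred2 held 1 CRE core, 52 bases before the start site, and 1 NFAT match, and none of the 5 motifs was found for Spred1. Over 33469 RefSeq windows, which also hold 50 bases past the start site, the share with a match was 7.33% for AP-1, 7.94% for the CRE core, 4.33% for the EGR core and 24.7% for NFAT, and 5004 windows held an ETS match. All 7 genes had a window, and Spry2 had 2. Among the windows not shown, an ETS match was found for Spry2, and an AP-1 match and an NFAT match for Spry3. The 8-base word CCATTCAT was singled out after the sequence was seen, as the word that recurs most in the window of Spry4. It begins 197, 71 and 16 bases before the start site and once more 36 bases after it. At least 1 copy was found in 1.02% of all windows, and 1 window held 4 or more, that of Spry4. A match to letters is a description and not evidence of a bound site.

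The SPRED genes carried most of the mRNA of the family in every sample (see the stacked bars of summed FPKM). Spred1 encodes an inhibitor that binds NF1 and is lost in Legius syndrome, and it had the highest level of the 7, at 12.5 ± 1.75 FPKM in Ctrl (SD, n = 3). Spred2, its close relative, came next at 10.4 ± 0.384 FPKM (SD, n = 3). Spry4 at 1.79 ± 0.191 FPKM and Spred3 at 1.74 ± 0.293 FPKM (SD, n = 3 each) lay far lower and overlapped in range. Spred3 encodes the member that lacks a working KIT-binding domain. By mean level in Ctrl, Spred1 was at the 68.5th percentile of all genes with a value and Spry4 at the 46.3rd.

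Spry1, Spry2 and Spry3 were at or near 0. Spry1 was listed at 0 in 7 of 9 samples and at 0.13 and 0.14 FPKM in DNP replicates 1 and 2. Spry2, the member best known for binding the ubiquitin ligase CBL, was listed at 0 in 8 samples and at 0.04 FPKM in Ctrl replicate 1. Spry3 was at 0.11, 0.26 and 0.30 FPKM in Ctrl, at 0.11, 0.12 and 0.34 FPKM in DNP, and at 0, 0 and 0.10 FPKM in PF. All PF samples were therefore below all others for Spry3 (two-sided exact permutation test against either group, p = 0.1, the smallest that 3 against 3 samples allow). Without a filter on low values its log2 fold change was -0.24 in PF vs Ctrl (SE 0.0685, adjusted p = 0.0352 by limma) and -0.20 in PF vs DNP (SE 0.0806, adjusted p = 0.125 by limma). At such levels the depth may not show a difference. These 3 genes never reached 1 FPKM and were left out of the main tests, in which 4 of the 7 took part.

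**Figure D1:**
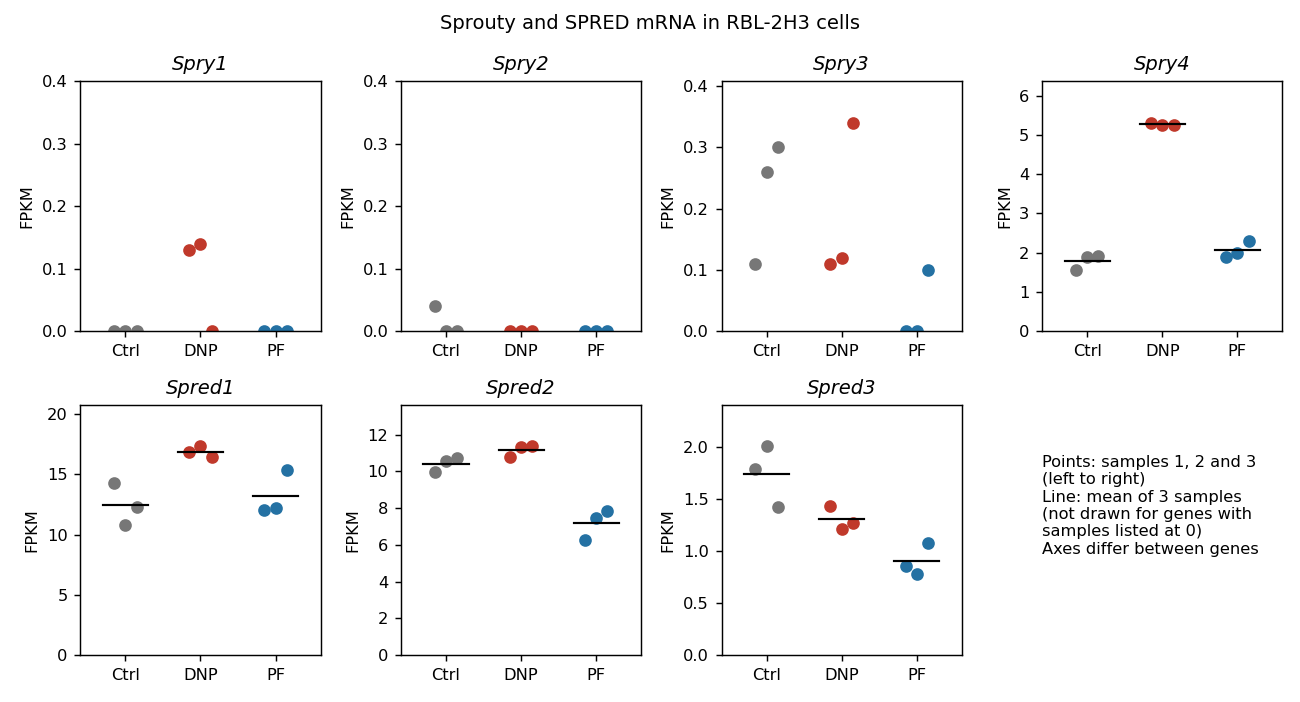
FPKM of each Sprouty and SPRED gene (vertical axis, its own scale per gene) in the 3 samples of each group (horizontal axis), with points for samples and, for Spry4 and the SPRED genes, lines for means. Spry4 stands between 5.24 and 5.31 FPKM in DNP and between 1.57 and 2.29 FPKM in Ctrl and PF, and Spred2 is lower in PF than in either other group.

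The first comparison set antigen-stimulated cells against Ctrl. Whether Ctrl had received IgE is not settled, so responses to IgE and to antigen cannot be told apart. Spry4 and Spred1 rose in DNP vs Ctrl, and neither Spred2 nor Spred3 passed the test. The test was limma on log2(FPKM + 1), run over the 10392 genes that reached 1 FPKM in 3 or more of the compared samples, and adjustment was over all of them. Of the 4 family members tested, 2 were called, beside 29.2% of all genes tested. Both were higher, where 14.7% of all genes were, and 0 were lower, where 14.4% were. In 3 of the 4 members the DNP samples all lay above the Ctrl samples. Over all genes the groups did not overlap in 45.8%, with 22.4% higher and 23.4% lower.

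Spry4 was at 1.57, 1.89 and 1.91 FPKM in Ctrl and at 5.31, 5.24 and 5.26 FPKM in DNP. The groups were far apart, and the DNP samples were nearly equal. Mean Spry4 rose to 5.27 ± 0.0361 FPKM (SD, n = 3), a ratio of 2.94, with a log2 fold change of 1.17 (SE 0.0788, adjusted p = 5.94e-05 by limma). On this scale the fold change of a low gene is understated. With a pseudocount of 0.01 in place of 1 it was 1.56. By size of log2 fold change, Spry4 was above 99.6% of the genes tested.

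Spred1 was at 14.3, 10.8 and 12.3 FPKM in Ctrl and at 16.9, 17.3 and 16.5 FPKM in DNP. All DNP samples were above all Ctrl samples, which spread more widely. The mean of 16.9 ± 0.440 FPKM (SD, n = 3) was 1.35 times that of Ctrl, and the log2 fold change was 0.42 (SE 0.0869, adjusted p = 0.00904 by limma). Leaving out 1 sample at a time gave values between 0.33 and 0.51, with adjusted p of at most 0.0342.

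Spred2 was at 9.99, 10.6 and 10.7 FPKM in Ctrl and at 10.8, 11.4 and 11.4 FPKM in DNP. The groups did not overlap, but they lay close together. The log2 fold change was 0.09, with a 95% confidence interval from -0.03 to 0.21 (adjusted p = 0.232 by limma). Spred3 was at 1.79, 2.01 and 1.43 FPKM in Ctrl and at 1.44, 1.21 and 1.27 FPKM in DNP. Ctrl replicate 3 fell within the DNP range, and the log2 fold change was -0.25, with an interval from -0.49 to -0.00281 (adjusted p = 0.117 by limma).

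The change in Spry4 altered the makeup of the family. Spry4 was between 5.64% and 7.39% of the summed FPKM of the 7 genes in Ctrl and between 14.8% and 15.3% in DNP. Its level then stood above that of Spred3 by a ratio of 4.03, where in Ctrl both overlapped. Summed Sprouty mRNA was 1.72, 2.15 and 2.21 FPKM in Ctrl and 5.55, 5.50 and 5.60 FPKM in DNP, and summed SPRED mRNA went from 24.7 ± 1.36 to 29.4 ± 0.454 FPKM (SD, n = 3 each). For both sums all DNP samples were above all Ctrl samples (two-sided exact permutation test, p = 0.1 each, the smallest this design allows). In bulk RNA, more mRNA per cell and more cells that express a gene cannot be told apart.

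**Figure D2:**
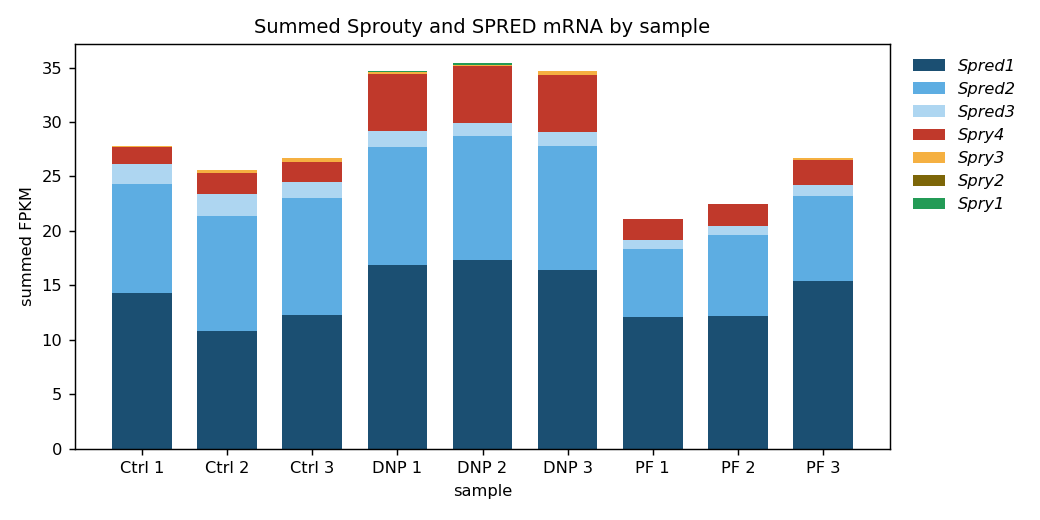
FPKM summed over the 7 genes (vertical axis) in each of the 9 samples (horizontal axis), coloured by gene. The DNP bars reach between 34.7 and 35.4 FPKM, the Ctrl bars between 25.6 and 27.8 FPKM and the PF bars between 21.1 and 26.7 FPKM.

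The second comparison set PF samples against DNP samples. By 1 label field, PF replicates 2 and 3 had antigen for 5 and 6 h, and the DNP samples for 4 h. If that field holds, PF and longer stimulation cannot be told apart in those replicates. Spry4, Spred1 and Spred2 fell in PF vs DNP, and Spred3 passed only narrowly. All 4 members tested were called, beside 48.8% of 10329 genes. They were lower, where 30.7% of all genes were, and 0 were higher, where 18.1% were. In each of the 4 the PF samples all lay below the DNP samples. Spred3 reached 1 FPKM in all Ctrl and DNP samples but in only 1 PF sample. In both PF comparisons it was therefore tested through the higher group alone, and its calls there add no support to the counts. Over all genes the groups did not overlap in 57.6%, with 22.3% higher and 35.4% lower. The median log2 fold change of all genes tested was -0.04 as deposited and -0.13 when every sample was brought to the same (mean) sum, against 0.02 with scaling by median ratios. With those scalings 4302 genes were lower and 869 higher, or 2602 lower and 2758 higher, against 3172 lower and 1870 higher as deposited.

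Spry4 fell from 5.27 FPKM in DNP to 1.88, 2.00 and 2.29 FPKM in PF. No PF sample came near a DNP sample. The mean in PF was 2.06 ± 0.211 FPKM (SD, n = 3), a ratio of 0.390 to DNP, with a log2 fold change of -1.04 (SE 0.0777, adjusted p = 1.12e-05 by limma). Over 17 alternatives it ranged from -1.36 to -0.99. By signed log2 fold change it was at the 1.89th percentile of the genes tested.

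Spred2 was at 6.27, 7.48 and 7.82 FPKM in PF, all below the lowest DNP sample at 10.8 FPKM. Its log2 fold change was -0.58 (SE 0.0782, adjusted p = 3.76e-04 by limma), with a mean of 7.19 ± 0.815 FPKM (SD, n = 3). Spred1 was at 12.1, 12.2 and 15.4 FPKM in PF, where replicate 3 stood above the others but still below the lowest DNP sample. Its log2 fold change was -0.34 (SE 0.0845, adjusted p = 0.00948 by limma). Without PF replicate 3 it was -0.45 (adjusted p = 3.67e-04 by limma). Leaving out 1 sample at a time gave Spred1 values between -0.45 and -0.28, with limma adjusted p of at most 0.0363.

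Spred3 was at 0.86, 0.78 and 1.08 FPKM in PF, below all DNP samples. Its log2 fold change was -0.28 (SE 0.101, adjusted p = 0.0480 by limma). This call was lost under 13 of 16 alternatives, with adjusted p between 0.0176 and 0.143, among them scaling by median ratios (0.0685) and leaving out any DNP sample. PF replicate 3, the sample given 6 h of antigen in one label field, had the highest level within PF of each of the 4 genes. With PF replicate 1 alone, the sample given 4 h in both fields, the log2 fold changes against DNP were -1.12 for Spry4, -0.74 for Spred2, -0.45 for Spred1 and -0.31 for Spred3, and the limma adjusted p was 0.127 for Spred3 and at most 0.00328 for the others. That fit takes the lone sample to vary like those of the other group.

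The third comparison set PF against Ctrl, and it uses samples of both comparisons above. Spred2 was lower in PF than in Ctrl, whereas Spry4 and Spred1 did not pass the test. Spred3 was also lower, but it was tested through Ctrl alone, the group where it is high. Of the 4 members tested, 2 were called, beside 57.7% of 10361 genes. Both were lower, where 34.6% of all genes were, and 0 were higher, where 23.1% were. The same 2 members had all PF samples below all Ctrl samples. For Spred3 neither the call nor the separation adds support to these counts, which leaves Spred2. Over all genes the groups did not overlap in 64.8%, with 26.6% higher and 38.2% lower. The median over all genes was -0.05, and -0.12 with the mean sum or 0.01 with median ratios, which gave 4316 lower and 1575 higher, or 3016 lower and 3142 higher. Spry4 differed by a log2 fold change of 0.13, with a 95% confidence interval from -0.08 to 0.35 (adjusted p = 0.257 by limma), and the samples overlapped. Spred1 differed by 0.08, with an interval from -0.18 to 0.33 (adjusted p = 0.593 by limma). Spred2 fell from 10.4 to 7.19 FPKM, a log2 fold change of -0.48 (SE 0.0809, adjusted p = 0.00106 by limma). Spred3 fell from 1.74 ± 0.293 to 0.907 ± 0.155 FPKM (SD, n = 3 each), with a log2 fold change of -0.52 (SE 0.112, adjusted p = 0.00404 by limma).

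The order of levels in PF was Spred1, Spred2, Spry4 and Spred3, and the ranges of neighbours did not overlap. Spry4 was between 8.59% and 8.92% of the summed FPKM there. The SPRED sum was 21.3 ± 2.64 FPKM (SD, n = 3), below all DNP samples (two-sided exact permutation test, p = 0.1) and overlapping with Ctrl (p = 0.2, exact).

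**Figure D3:**
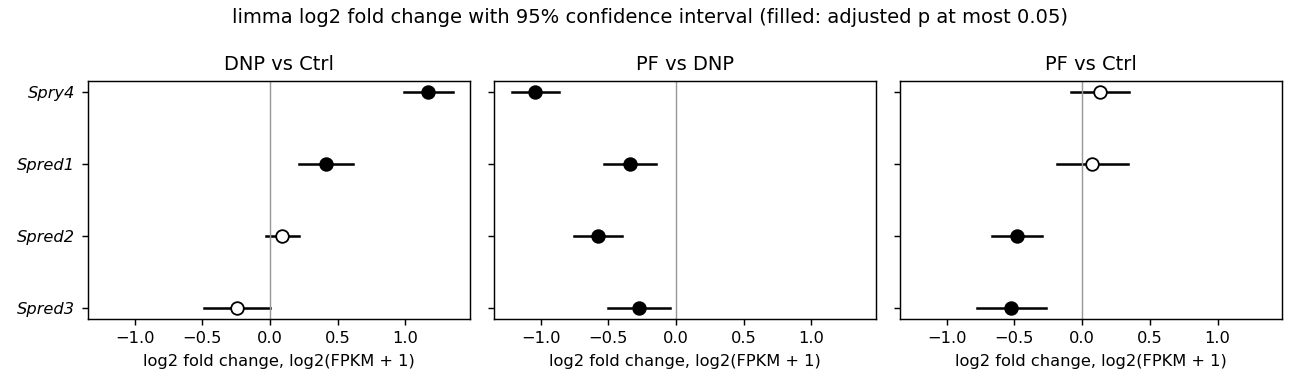
limma log2 fold change of the 4 tested genes (horizontal axis, on the log2(FPKM + 1) scale) in the 3 comparisons, with 95% confidence intervals and filled points where the adjusted p was at most 0.05. Spry4 and Spred1 are above 0 in DNP vs Ctrl and below 0 in PF vs DNP, and Spred2 and Spred3 are below 0 in both PF panels.

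Genes around the family were described from 5 lists, chosen with earlier results of these data known. Their counts and medians, set beside those of all genes, are therefore a description and not support. The first list holds 15 genes known as outputs of ERK signalling, other than the family itself, of which 8 were tested in DNP vs Ctrl. Of these, 6 were higher and 0 lower, where 14.7% of all genes were higher and 14.4% lower, with a median log2 fold change of 0.47 against -0.01 over all genes tested. The highest was Egr1, an immediate early transcription factor, with 5.20. The ERK phosphatase gene Dusp6 rose from 18.2 ± 1.42 to 46.1 ± 1.62 FPKM (SD, n = 3 each), with 1.29 on the log2 scale, and Dusp4, another phosphatase of MAP kinases, rose by 0.73 on the log2 scale. Phlda1 had the lowest of the called values, at 0.20. Etv4 and Etv5, ETS factors that often follow ERK activity, did not exceed 0.50 FPKM in any sample and were not tested.

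In PF vs DNP, with Dusp5 left out, 5 of 8 tested ERK output genes were lower and 2 were higher. Over all genes 30.7% were lower and 18.1% higher. The median of the 8 was -0.32 against -0.04 over all genes. Dusp4 had the lowest value, with a log2 fold change of -1.15 (adjusted p = 2.49e-07 by limma), and Dusp6 was at -0.75 and Phlda1 at -0.25. Egr1 went the other way, from 169 ± 9.59 to 226 ± 10.7 FPKM (SD, n = 3 each), or 0.41 on the log2 scale. Ccnd1, the gene of cyclin D1, was the other one that was higher, at 0.50. Dusp5 was at 0.22 (adjusted p = 0.170 by limma). Dusp5 reached 1 FPKM in all PF samples, in 1 DNP sample and in no Ctrl sample. It was therefore tested only through the group where it is high and is left out of the counts in both PF comparisons. In PF vs Ctrl, 5 of the other 8 genes were higher and 2 lower, where 23.1% of all genes were higher and 34.6% lower, and their median was 0.39 against -0.05. With the mean sum 4 were higher and 2 lower. Egr1 was highest at 5.61, while Dusp6 was at 0.55 and Phlda1 at -0.05 (adjusted p = 0.466 by limma), which turned to 0.01 with median ratios. Dusp4 was lower, at -0.42, and Myc lowest, at -0.58. Spry4, with an interval from -0.08 to 0.35 in that comparison, is set beside these genes in the plot of fold changes against Ctrl.

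**Figure D4:**
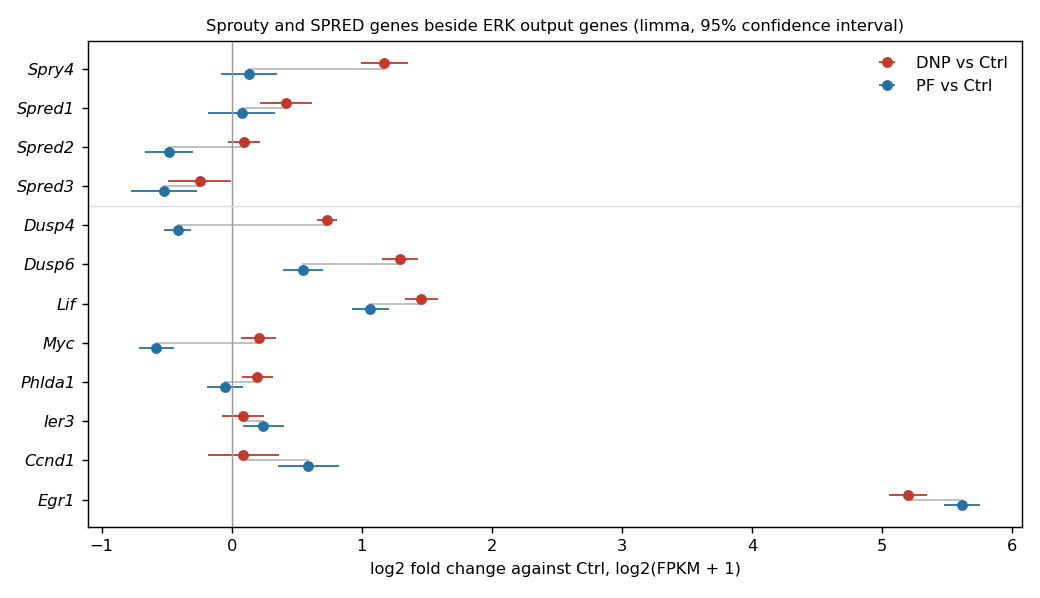
limma log2 fold change against Ctrl (horizontal axis, log2(FPKM + 1) scale) of DNP and PF samples, with 95% confidence intervals, for the 4 tested family members and the 8 ERK output genes tested in both comparisons. Both comparisons share the Ctrl samples; Spry4 is at 1.17 in DNP and 0.13 in PF, while Egr1 is at 5.20 and 5.61.

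For the remaining lists the shares of all genes called, as given above, are the background: 14.7% higher and 14.4% lower in DNP vs Ctrl, 18.1% and 30.7% in PF vs DNP, and 23.1% and 34.6% in PF vs Ctrl. Several of their counts in the PF comparisons turned with the scaling, so both scalings are given beside them. Few genes of the kinase core passed the test. The median log2 fold changes in DNP vs Ctrl, PF vs DNP and PF vs Ctrl were 0.02, -0.01 and 0.06. Of 10 tested Raf, MEK and ERK kinases and scaffolds, 0 were higher and 1 was lower in DNP vs Ctrl, the scaffold gene Lamtor3 at -0.17, a call that was lost under both scalings (adjusted p = 0.0639 by limma with the mean sum). In PF vs DNP, 2 were higher, with Pebp1, whose protein binds Raf, at 0.26, and 1 was lower, Lamtor3 at -0.20. The other higher gene, Mapk3, was lost with the mean sum (adjusted p = 0.239 by limma), which gave 1 higher and 2 lower. In PF vs Ctrl, 1 was higher, Pebp1 at 0.27, and 1 was lower, Lamtor3 at -0.36, while median ratios gave 5 higher and 1 lower.

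Ras GTPase-activating proteins switch Ras off, and their medians in the same order were -0.01, -0.14 and -0.16. Of 7 genes tested, 2 rose in DNP vs Ctrl, Rasa1 by 0.39 and Rasa2 by 0.34 on the log2 scale, and 0 fell. In PF vs DNP, 3 were lower and 0 higher, also with median ratios, and 6 were lower with the mean sum. Rasa4 had the lowest value, at -0.93, falling from 6.03 ± 0.143 to 2.70 ± 0.485 FPKM (SD, n = 3 each), and Nf1, the partner of SPRED proteins, was at -0.35 (adjusted p = 0.00929 by limma). In PF vs Ctrl, 4 were lower, with Rasa4 again lowest at -0.93, and 1 was higher, Rasa1 at 0.25. With median ratios 2 were lower and 1 higher, and with the mean sum 5 were lower and 0 higher, Rasa1 no longer passing (adjusted p = 0.126 by limma).

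Adaptors, exchange factors and Ras genes had medians of -0.04, -0.02 and -0.12. Of 13 tested, 3 were higher in DNP vs Ctrl, with the adaptor Lat highest at 0.24, and 3 were lower, with the exchange factor Sos2 lowest at -0.27. In PF vs DNP, 5 were lower and 0 higher, and the adaptor Gab2 had the lowest value at -0.69, with 57.0 ± 5.16 FPKM in DNP and 34.9 ± 3.11 FPKM in PF (SD, n = 3 each). In PF vs Ctrl, 6 were lower, with Gab2 lowest at -0.89, and 3 were higher, with Hras highest at 0.36. With median ratios, 4 were lower and 3 higher in PF vs DNP, where Sos2 was lost and Grb2, Lat and Nras were gained as higher, and 5 were lower and 4 higher in PF vs Ctrl. With the mean sum, 6 were lower and 0 higher in PF vs DNP, and 8 were lower and 3 higher in PF vs Ctrl.

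The last list holds 13 genes whose products bind, modify or degrade Sprouty or SPRED proteins, all of them tested, with medians of -0.02, -0.09 and 0.00. In DNP vs Ctrl, 2 were higher, with the ubiquitin ligase gene Nedd4 highest at 0.27, and 3 were lower, with the kinase gene Mknk1 lowest at -0.35. In PF vs DNP, 5 were lower and 2 higher, but the balance turned with the scaling, with 3 lower and 4 higher by median ratios and 8 lower and 0 higher by the mean sum. Siah2, a ubiquitin ligase gene, had the lowest value at -0.40, while Mknk2 was highest at 0.19, which did not pass with scaling to the mean sum (adjusted p = 0.0583 by limma). In PF vs Ctrl, 6 were lower, with Mknk1 lowest at -0.62, and 2 were higher, with Nedd4 highest at 0.25. Median ratios gave 5 lower and 4 higher there, and the mean sum 6 lower and 1 higher.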

How the data were processed

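RNA of 9 RBL-2H3 samples was sequenced, on a BGISEQ-500 by the paper's methods, while the labels describe Illumina libraries. Per the paper's methods and the submitters' processing notes, the authors filtered reads with SOAPnuke, mapped them with HISAT2 (2.0.4), aligned them with Bowtie2 (2.2.5) and quantified genes with RSEM (1.2.12). The notes name build rn6, and the annotation is not given in the sources used here. The authors deposited 1 value per gene and sample under a heading with no unit, read here as FPKM because the values have decimals and unequal sums. Of 38490 gene rows, 20484 held no value in any sample. Samples were joined by gene identifier.

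No count test could be run on FPKM. For each pair of groups, limma (3.58.1, R 4.3.3, eBayes with trend) was run on log2(FPKM + 1) where 3 or more of the compared samples reached 1 FPKM. A Benjamini-Hochberg adjusted p of at most 0.05 made a call. The fit was also run on simulated data, drawn from normal distributions. For single genes and sums, a two-sided exact permutation test over samples was added. Depth in reads is unknown, so precision rests on 3 replicates. The study's own test models read counts, which were not used here.

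The family, the gene lists and the tests were chosen with earlier results of these data known. The genes named are the 7 members, the called genes with the highest and lowest log2 fold change of each list, and Egr1, Dusp4, Dusp5, Dusp6, Etv4, Etv5 and Phlda1. Nf1, Grb2, Mapk3 and Nras were added after their values were seen. For each tested member, the 3 other named genes with the highest Pearson r over 9 samples were also taken. Promoters came from RefSeq (GRCr8).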

Additional observations from a re-analysis of the deposited data

How the results depend on the processing

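The alternatives were a pseudocount of 0.1 or 0.01, no filter, at least 1 FPKM in every compared sample, both scalings, a fit over all 3 groups, a block for the replicate number, eBayes without trend, a threshold of 0.01 and each sample left out. The fit with 1 PF sample was added after seeing the data. In DNP vs Ctrl, 2 family members were higher and 0 lower under each of these. In PF vs DNP, 3 or 4 were lower, the difference being Spred3. In PF vs Ctrl, 1 was lower with at least 1 FPKM in every compared sample, which leaves Spred3 out, and 3 were lower with no filter, where Spry3 was added.

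Counts over all genes moved further. At the threshold of 0.01, 817 were higher and 652 lower in DNP vs Ctrl, and 1101 were higher in PF vs DNP. Scaling to the mean sum left 869 higher in PF vs DNP and 1575 in PF vs Ctrl, and the single PF sample 1178 and 1362, with fewer samples in the fit. Scaling to the mean sum and by median ratios gave 4316 and 3016 lower genes in PF vs Ctrl, where 3586 were lower as deposited, and median ratios gave 3142 higher. Among recomputed counts of list genes, 447 stayed within 1.5 times and 53 did not. Many of these counts are small, and 0 against 0 was taken as staying, so the total says little. Moves were most frequent for lower genes of the kinase core in DNP vs Ctrl (10 of 16 alternatives). Next came higher genes of the Sprouty and SPRED partners in PF vs Ctrl (8 of 17).

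Samples that share a replicate number did not deviate together throughout. Correlations across genes were 0.09, 0.19 and 0.08 in PF vs Ctrl, all positive, and between -0.08 and 0.05 in the other comparisons. With the replicate block, 1368 genes were higher and 1329 lower in DNP vs Ctrl, 1704 and 2971 in PF vs DNP, and 2436 and 3573 in PF vs Ctrl. Among family members the block changed 1 call, Spred3 in PF vs DNP (limma adjusted p = 0.0800). Spred3 and the genes near 0 are where the unknown depth limits most.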

Other observations

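Over the 9 samples, the genes whose log2(FPKM + 1) followed each family member most closely were taken from 10504 genes as a description, since all share the same 3 groups. Spry4 was most like Map9 (Pearson r = 0.992), Ccl2 (0.991), a chemokine gene that attracts monocytes, and Rad54l2 (0.991). Map9 had means of 10.7 FPKM in Ctrl, 26.9 FPKM in DNP and 11.3 FPKM in PF, and Ccl2 had 224, 677 and 273 FPKM. Both were highest in DNP, as Spry4 was.

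Spred2 was most like Rgs1 (r = 0.990), Olr1750 (0.983) and Rgs2 (0.982). Rgs1 and Rgs2 encode inhibitors of G protein signalling and were among the abundant genes, Rgs1 with means of 1912, 1980 and 1364 FPKM and Rgs2 with 2087, 2188 and 1557 FPKM in Ctrl, DNP and PF. Spred1 was most like Thada (0.978), Zfp91 (0.965) and Tsr1 (0.956), and Spred3 most like Mlx (0.981), Rpp14 (0.969) and L3mbtl2 (0.967). Within the family the highest r was between Spry4 and Spred1 (0.818) and the lowest between Spred1 and Spred3 (-0.05).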
